A study of Mus musculus with 6 samples.

Results

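Itaconate synthesis, the phagocyte NADPH oxidase, lysozyme and a pore-forming protein are 4 means by which macrophages act on engulfed microbes. The 8 genes described here cover them: Acod1, the oxidase subunit and partner genes Cybb, Cyba, Ncf1, Ncf4 and Rac2, and the effector genes Lyz2 and Mpeg1. They were listed by symbol and found in the count tables through their Ensembl identifiers, 8 of 46603 gene rows. Members were chosen by name with the measured differences between the same 6 libraries known. Differences between the media are therefore given for these 8 genes as a description. Members called in fits over all genes are counted and named, without printing their p-values, and nothing is supported with them.

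The libraries came from bone marrow-derived macrophages of C57BL/6/J mice aged 7 weeks, grown with 20% L929 cell-conditioned medium, a source of macrophage growth factor. Per the labels' protocols, cells were seeded on day 6 at 800000 per well and 6 h later received medium conditioned by cancer cells. In 3 libraries that medium held its lipids, and 3 received it without lipids. All 6 libraries thus share the exposure to cancer cell products, and no library without that exposure was analysed here. The labels leave out the cancer cell line, how lipids were removed and the time in the medium. Nothing in them ties a library to its own mouse or culture, so a p-value here covers library-to-library spread alone, possibly technical. The libraries are called lipid 1 to lipid 3 and lipid-free 1 to lipid-free 3. Totals ranged from 20778651 to 25323053 counts with lipids and from 19429022 to 22330119 without. Lipid-free 1 stood apart from the other 5, at -22.96 on the second principal component (21.8% of variance) where they lay between -1.17 and 13.95. Results that rest on it are given with and without it.

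Itaconate is made in mitochondria from the citric acid cycle intermediate cis-aconitate by the enzyme that Acod1 encodes. It inhibits bacterial isocitrate lyase and the host's succinate dehydrogenase, and Acod1 is strongly induced in macrophages by bacterial products and interferons. The phagocyte oxidase passes electrons from NADPH across the membrane to oxygen, giving superoxide. Its membrane core is a heterodimer of the Cybb and Cyba products, which is switched on when cytosolic proteins, those made from Ncf1 and Ncf4 among them, and a Rac GTPase join it. Loss of core or cytosolic subunits causes chronic granulomatous disease in humans. Lyz2 encodes the lysozyme of mouse macrophages, which cuts bacterial cell wall peptidoglycan, and Mpeg1 encodes perforin-2, which forms pores in the membranes of engulfed bacteria.

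Promoter sequence is shown for 3 of these genes because Acod1 had the largest log2 fold change of the 8, while Cybb and Ncf1 encode subunits of a single enzyme, one from its membrane core and one from its cytosolic part. Sequences are from RefSeq on GRCm38.p6, 250 bases before the annotated start and 50 from it on, 5′ to 3′ on the gene's strand. Of the 8 genes 6 matched that table. Capitals mark matches, on either strand, to 9 motifs: GAAANNGAAA of interferon regulatory factors (IRF), GGAANNGAAA of joint ETS and IRF binding, AGGAAG of ETS factors such as PU.1, GGGNNTTTCC of NF-kB, TGANTCA of AP-1, CACGTG of MiT/TFE factors, TTCNNNGAA of STAT factors, TTGCNNAA of C/EBP factors, and TATAAA. The Acod1 window lies at chr14:103046762-103047061 on the plus strand, that of Cybb at chrX:9469275-9469574 on the minus strand, and that of Ncf1 at chr5:134229576-134229875 on the minus strand.
Acod1: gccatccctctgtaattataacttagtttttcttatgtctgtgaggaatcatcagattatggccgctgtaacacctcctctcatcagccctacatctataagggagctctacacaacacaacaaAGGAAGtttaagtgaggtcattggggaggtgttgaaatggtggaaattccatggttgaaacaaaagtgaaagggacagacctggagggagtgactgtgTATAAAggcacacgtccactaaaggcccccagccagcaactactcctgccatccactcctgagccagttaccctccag
Cybb: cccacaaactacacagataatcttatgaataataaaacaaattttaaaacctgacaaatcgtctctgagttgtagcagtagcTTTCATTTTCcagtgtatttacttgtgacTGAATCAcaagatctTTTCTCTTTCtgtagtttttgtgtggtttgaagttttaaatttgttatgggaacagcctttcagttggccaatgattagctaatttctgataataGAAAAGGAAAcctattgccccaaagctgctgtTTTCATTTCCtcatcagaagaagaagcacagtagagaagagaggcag
Ncf1: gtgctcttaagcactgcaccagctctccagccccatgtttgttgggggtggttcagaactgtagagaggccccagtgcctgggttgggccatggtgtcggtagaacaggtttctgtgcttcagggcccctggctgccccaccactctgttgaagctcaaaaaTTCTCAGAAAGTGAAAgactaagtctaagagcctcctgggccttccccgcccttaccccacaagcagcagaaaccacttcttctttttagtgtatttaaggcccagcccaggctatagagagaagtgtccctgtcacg

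The Acod1 window held 1 AGGAAG, which 35.4% of all 32851 promoters of this length hold, and a TATAAA from -28 to -23 relative to the start (13.6% of promoters). The Cybb window, at 35.3% GC against a median of 52.7% over all promoters, held 3 matches to GAAANNGAAA. That motif is present in 3.44% of promoters. These shares are not matched for base content, so they may be too low for such an AT-rich window. The Cybb window also held GGAANNGAAA just after the start, at 3 to 12 (2.72% of promoters), and 1 TGANTCA (7.81% of promoters). The Ncf1 window held GAAANNGAAA once, from -82 to -73, overlapping by 3 bases a TTCNNNGAA match (8.3% of promoters). Lyz2 held AGGAAG at 2 places, and the windows of Cyba and Mpeg1 held none of the 9 motifs. CACGTG (7.15% of promoters), GGGNNTTTCC (1.63%) and TTGCNNAA (10.8%) had no match in the 6 windows. These matches describe letters in a window and do not show binding.

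With lipids in the medium, Acod1 transcript stood at 0.271 times its level without lipids, with less of both membrane subunits of the oxidase and of Mpeg1, while Ncf1 and Rac2 overlapped between the media. In a fit over all 12767 tested genes (edgeR's quasi-likelihood test, Benjamini-Hochberg adjusted p of 0.05), 4 of the 8 were called lower with lipids, namely Acod1, Cyba, Mpeg1 and Cybb, and 0 higher. Among all tested genes 6.87% were called lower and 4.58% higher, 11.5% in either direction. DESeq2 called 5 members lower and 0 higher, and 909 of all genes lower and 602 higher. Libraries of the groups did not overlap for 6 of the 8, all lower with lipids, while 15.8% of tested genes had all 3 libraries with lipids below all 3 without. Since the list was drawn up with these differences known, no count of members is read as evidence. The median log2 fold change was -0.38 over the 8 genes and -0.003 over all tested genes. Leaving out lipid-free 1, the number called was 6. That fit called more of all genes too, 1566 higher and 1975 lower, against 585 and 877 with all libraries.

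**Figure D1:**
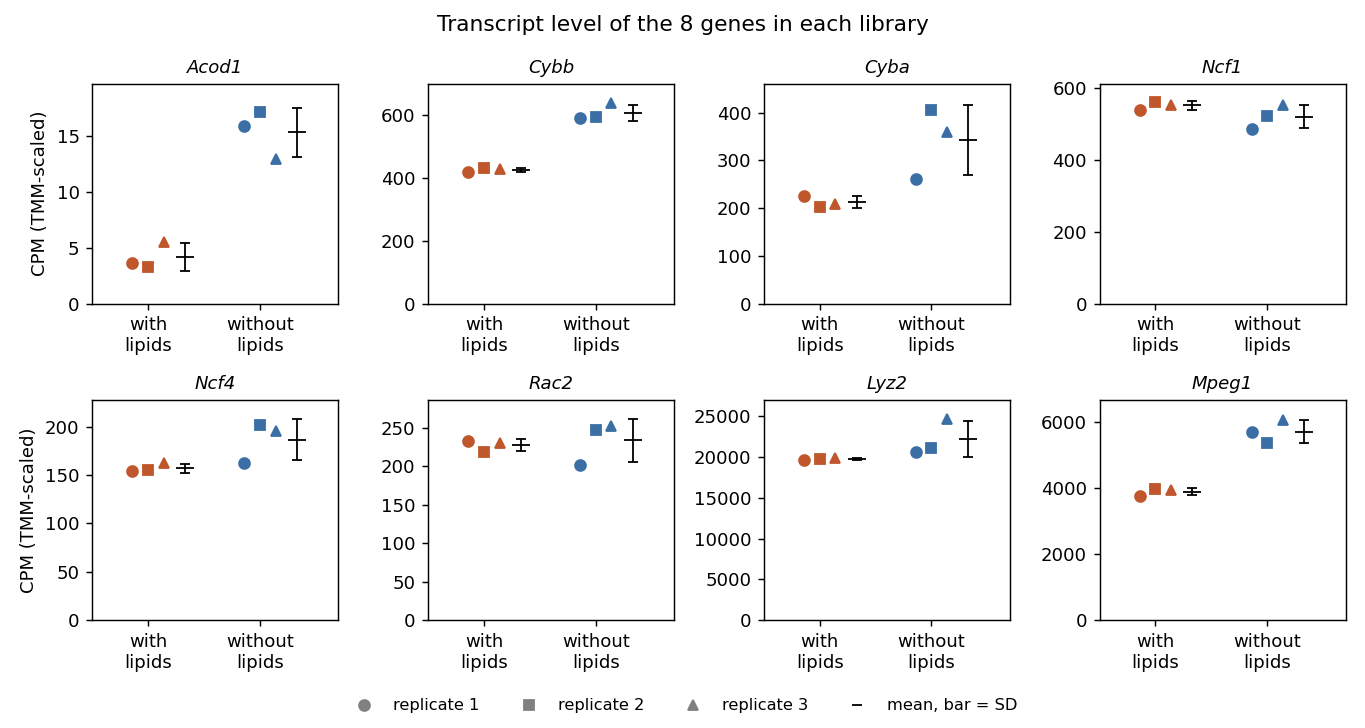
Counts scaled to library size (CPM, TMM-scaled, linear axis from 0) of each gene in each library, with lipids on the left and without lipids on the right of each panel. Markers are replicates and the bar is the mean with its SD (n = 3). Acod1 lay between 3.31 and 5.57 CPM with lipids and between 12.9 and 17.2 without, and Ncf1 and Rac2 overlapped between the media.

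Acod1 (ENSMUSG00000022126, chr14:103046977-103056573, GRCm38, plus strand) had 81, 86 and 119 counts in replicates 1 to 3 with lipids and 303, 324 and 282 counts without. Scaled to library size by the trimmed mean of M-values (TMM), these were 3.66, 3.31 and 5.57 CPM with lipids, against 15.9, 17.2 and 12.9 CPM without. All 3 libraries with lipids lay below all 3 without, with a gap of 1.20 log2 between the nearest ones. The log2 fold change was -1.89 (SE 0.18), the 8th lowest of the 12767 tested genes. Acod1 was also the scarcest of the 8, with a level per kilobase of exon above only 40.7% of tested genes, where each of the other members stood above at least 96.0%. The coefficient of variation of its CPM was 29.1% with lipids and 14.2% without.

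Cybb (ENSMUSG00000015340, chrX:9435252-9487771, minus strand) encodes the catalytic subunit of the oxidase, called gp91phox or NOX2. It was at 416, 429 and 427 CPM with lipids, against 589, 591 and 635 CPM without. The groups did not overlap, and their coefficients of variation were 1.66% with lipids and 4.32% without. Its log2 fold change was -0.51 (SE 0.06), a level with lipids of 0.701 times that without.

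Cyba (ENSMUSG00000006519, chr8:122424776-122432930, minus strand) encodes p22phox, the partner that stabilises the catalytic subunit. It was at 226, 203 and 209 CPM with lipids, against 262, 406 and 359 CPM without. The groups did not overlap, but lipid-free 1 stood nearer to the libraries with lipids than to its own group. The log2 fold change was -0.69 (SE 0.13) with all libraries and -0.84 leaving out lipid-free 1. Per kilobase of exon, Cyba was at 2.64 to 3.04 times the level of Cybb with lipids and at 2.48, 3.84 and 3.16 times without, ranges that overlap.

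Ncf1 (ENSMUSG00000015950, chr5:134220053-134229625, minus strand) encodes p47phox, the organiser that carries the cytosolic complex to the membrane once phosphorylated. It was at 541, 563 and 554 CPM with lipids, against 487, 524 and 553 CPM without. Libraries of the media overlapped, and the log2 fold change was 0.08 (SE 0.06), the one positive value among the 8. Ncf1 overlaps Gtf2ird2 on the other strand, which held 2277 counts over the 6 libraries where Ncf1 held 69633.

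Ncf4 (ENSMUSG00000071715, chr15:78244801-78262580, plus strand) encodes p40phox, which binds phosphoinositides of the phagosome membrane. It was at 154, 155 and 162 CPM with lipids, against 162, 202 and 196 CPM without. The highest library with lipids and the lowest without, lipid-free 1, lay side by side. The log2 fold change was -0.25 (SE 0.08) with all libraries and -0.34 leaving out lipid-free 1. Per kilobase of exon, Ncf1 was at 1.88 to 2.0 times the level of Ncf4 with lipids and at 1.43 to 1.66 times without.

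Rac2 (ENSMUSG00000033220, chr15:78559167-78572783, minus strand) encodes the Rac GTPase of blood cells, which binds NADPH oxidase when loaded with GTP. It was at 233, 219 and 230 CPM with lipids, against 201, 248 and 252 CPM without. Lipid-free 1 was the lowest of all 6 and the other 2 of its group the highest, so the groups overlapped. The log2 fold change was -0.04 (SE 0.08), and it turned to 0.04 with library totals in place of TMM scaling and to 0.02 leaving out lipid-free 3. Rac1, which is expressed in most tissues and can also serve the oxidase, averaged 446 ± 4.77 CPM with lipids and 406 ± 10.2 CPM in lipid-free medium (SD, n = 3 each; log2 fold change 0.14, SE 0.05, edgeR adjusted p = 0.116). It passed leaving out lipid-free 1 (edgeR adjusted p = 0.0288) and with library totals (0.0226). Per kilobase of exon, Rac2 stood at 0.717 to 0.75 of the level of Rac1 with lipids and at 0.71, 0.912 and 0.887 of it without.

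Set side by side, log2 fold changes were -0.51 and -0.69 for the membrane subunits Cybb and Cyba, and 0.08 and -0.25 for the cytosolic Ncf1 and Ncf4. Whether the membrane and cytosolic subunits differed from each other in their response was not tested, since that contrast was known when the genes were listed.

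Lyz2 (ENSMUSG00000069516, chr10:117277331-117282321, minus strand) was the most abundant of the 8 and took 2.01% to 2.04% of all counts with lipids and 2.03% to 2.41% without. It was at 19610.1, 19784 and 19845 CPM with lipids, against 20689, 21112 and 24729.5 CPM without. The coefficient of variation was 0.617% with lipids and 10.0% without, and the higher mean without lipids came mostly from lipid-free 3. The log2 fold change was -0.17 (SE 0.08), and -0.08 leaving out lipid-free 3.

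The neighbouring copy Lyz1, known as the lysozyme of Paneth cells in the gut, was counted at 0.0763 to 0.0851 per 100 counts of Lyz2 with lipids and at 0.0764 to 0.0878 without. At 15.8 ± 0.815 CPM with lipids and 18.4 ± 2.94 CPM without, it did not pass the test (log2 fold change -0.23, SE 0.12, edgeR adjusted p = 0.241). Reads of these near-identical genes may have been assigned to either, so the Lyz1 value is uncertain. Their promoters are shown to compare the copies over the 150 bases nearest the start, the more alike part of the window, which differ at 9 positions, printed in capitals. Over the whole windows 201 bases were identical. The Lyz1 window held the AGGAAG match from -99 to -94 in common with Lyz2, lacked the one from -137 to -132, and held a TTGCNNAA match of its own from -209 to -202. The Lyz2 stretch lies at chr10:117282223-117282372 and that of Lyz1 at chr10:117292819-117292968, both on the minus strand, with the last 50 bases from the annotated start on.
Lyz2: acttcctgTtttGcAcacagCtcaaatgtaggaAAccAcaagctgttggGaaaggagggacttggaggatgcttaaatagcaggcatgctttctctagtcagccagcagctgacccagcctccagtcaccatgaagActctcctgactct
Lyz1: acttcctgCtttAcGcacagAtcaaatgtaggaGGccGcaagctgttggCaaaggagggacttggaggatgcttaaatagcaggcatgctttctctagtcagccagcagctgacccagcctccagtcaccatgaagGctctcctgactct

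Mpeg1 (ENSMUSG00000046805, chr19:12460779-12465283, plus strand) was at 3762, 3976 and 3937 CPM with lipids, against 5705, 5355 and 6046 CPM without. The groups were separated by 0.43 log2 at their nearest libraries, and lipid-free 1 sat inside its own group. The log2 fold change was -0.55 (SE 0.06), a level with lipids of 0.682 times that without.

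**Figure D2:**
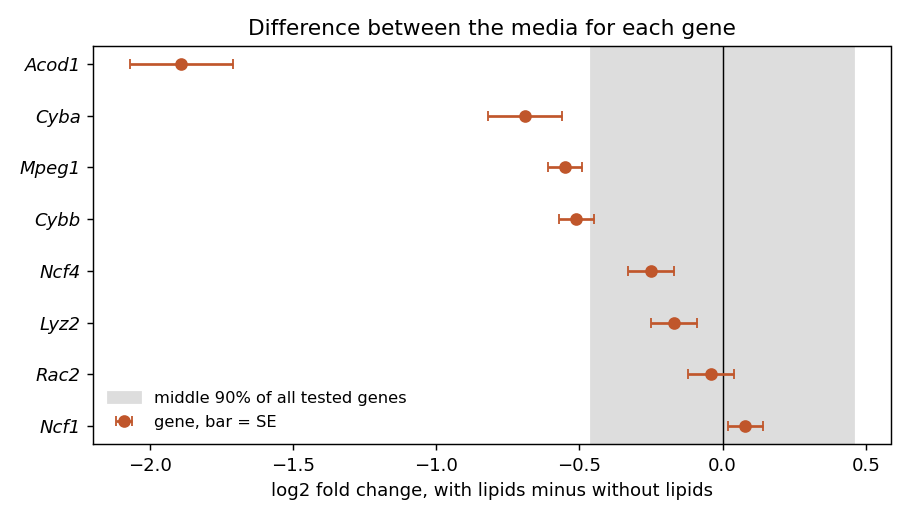
Log2 fold change with its SE for each gene, with lipids minus without lipids, over the range that holds the middle 90% of all 12767 tested genes (-0.46 to 0.46, grey). Acod1, Cyba, Mpeg1 and Cybb lie to the left of that range, and Ncf4, Lyz2, Rac2 and Ncf1 inside it.

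Levels per kilobase divide by the merged length of all annotated exons, which can exceed that of the transcripts made. The order between genes depends on that length. With lipids, Ncf1 at 553 CPM over 3663 bases came below Cyba at 213 CPM over 1039 bases. In both media these levels ran from Lyz2 at the top to Acod1 at the bottom. With lipids the order was Lyz2 at 15005 ± 92.5, Mpeg1 at 898 ± 26.3, Cyba at 205 ± 11.8, Ncf1 at 151 ± 3.12, Ncf4 at 77.7 ± 2.16, Rac2 at 73.3 ± 2.44, Cybb at 73.1 ± 1.21 and Acod1 at 1.59 ± 0.464 CPM per kilobase (SD, n = 3). Rac2 and Cybb overlapped there, and no other neighbours in the order did. Without lipids Cybb moved ahead of Ncf4 and Rac2, at 104 ± 4.50, 92.4 ± 10.6 and 75.3 ± 9.04 CPM per kilobase (SD, n = 3), and only Ncf4 and Rac2 overlapped. The 7 members other than Lyz2 together took 0.547% to 0.570% of counts with lipids and 0.710% to 0.786% without.

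The 8 genes did not vary in the same way within the group without lipids. Lipid-free 1 was the lowest of its 3 libraries for 6 of the 8, all but Acod1 and Mpeg1, and for 39.5% of all tested genes. Relative to the group mean it was lower by 0.36 log2 for Cyba, 0.21 for Rac2 and 0.20 for Ncf4, but stood at 0.06 for Acod1 and 0.00 for Mpeg1. Spread was larger without than with lipids for 7 of the 8, Acod1 being the exception, and for 74.1% of all tested genes.

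**Figure D3:**
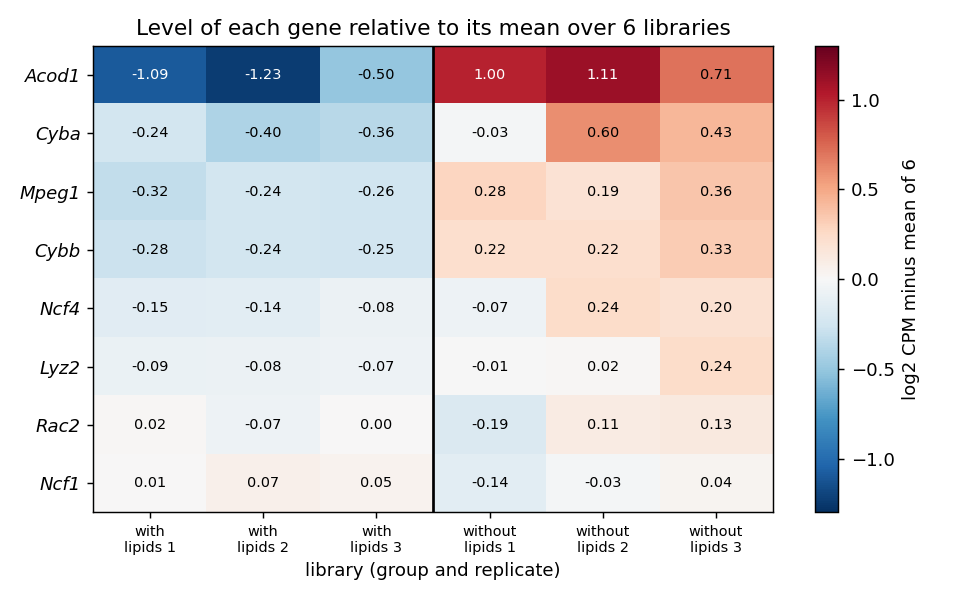
Log2 CPM of each gene in each library minus its mean over the 6 libraries, with genes ordered by log2 fold change and printed values in each cell. Cyba, Ncf4 and Rac2 in lipid-free 1 stand at -0.03, -0.07 and -0.19, where the other 2 libraries of that group lie between 0.11 and 0.60.

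For each member, the genes nearest in pattern were those at the smallest Euclidean distance in centred log2 CPM over the 6 libraries. Candidates were 9490 protein-coding genes of at least 5 CPM. The distance takes in the difference between the media, so near genes have similar log2 fold changes. Cybb was at -0.51, and its neighbours Soat1, Ctsb and Anxa4 were at -0.49, -0.53 and -0.51. Regulation in common was not tested. Nearest to Acod1 were Stra6l at a distance of 0.42, Kit at 0.64 and Gprc5b at 0.75, against a median of 2.38 over all candidates. Nearest to Cybb were the acyltransferase gene Soat1 at 0.05, the cathepsin gene Ctsb at 0.08 and Anxa4 at 0.09, and the closest pair within the list was Cybb with Mpeg1, also at 0.09. Mpeg1 had Ctss, Cybb and Soat1 as its nearest genes. Cyba lay near Ninj1 at 0.10, Vegfb at 0.15 and Matk at 0.15, and was 0.51 away from Cybb, its partner in the membrane. The median over all candidates was 0.96 for Cyba and 0.66 for Cybb. Over the members that median ranged from 0.33 for Ncf1 to 2.38 for Acod1. Ncf1 lay near Csf1r, Camkk2 and Ndst2, Ncf4 near Cox4i1, Lrrc14 and H2-K1, Rac2 near Lrp10, Fam234a and Ubald2, and Lyz2 near Ech1, Sephs2 and Plekhm1, all within 0.08.

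Marker genes give the cell type behind these values. All 8 macrophage markers were detected, among them Adgre1, Csf1r and Cd68, and they summed to 9599 to 9712 CPM with lipids and 8825 to 9663 CPM without. Of these, Itgam and Fcgr1 were called higher and Cd68 lower with lipids. Neutrophils also express the oxidase. Of 13 neutrophil markers Ly6g and Retnlg were at 0 in every library and Mpo, Elane, Prtn3, Camp and Cxcr2 had at most 3 counts in any. Their summed level was 31.0 to 36.3 CPM with lipids and 41.3 to 53.7 CPM without, of which Csf3r (18.9 ± 2.26 CPM with lipids and 30.7 ± 6.43 CPM without, edgeR adjusted p = 0.00947) and Mmp8 (13.6 ± 0.695 CPM with lipids and 15.4 ± 0.725 CPM without, edgeR adjusted p = 0.206) made up most. In the monocyte list, Ccr2 was called higher with lipids, Ly6c2 had at most 3 counts, and the sum was 65.6 to 70.5 CPM with lipids and 36.0 to 48.7 CPM without. Fibroblast and epithelial markers, mainly collagen genes, summed to 93.4 to 101 CPM with lipids and 93.1 to 130 CPM without, with Krt8 and Krt18 at 0. Lists for dendritic cells, mast cells or basophils, platelets, lymphoid and erythroid cells each summed to 0 to 1.5 CPM in every library. The part of these markers in the values above was not tested, and in bulk RNA fewer cells of a type and less RNA per cell cannot be told apart.

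The related lists below were also drawn up with earlier results of these data known. Their calls and counts are therefore given as a description. Among all tested genes 4.58% were called higher and 6.87% lower with lipids. Of 17 tested oxidase partners outside the 8 genes, 3 were higher and 1 lower with lipids, with a median log2 fold change of 0.07. Hvcn1, the proton channel that offsets the charge moved by the oxidase, fell to 15.7 ± 0.452 CPM with lipids, against 30.8 ± 4.65 CPM without (log2 fold change -0.98, SE 0.11, edgeR adjusted p = 0.000255), a call kept whichever library was left out. Hvcn1 overlaps Tctn1 on the other strand (1080 counts against 2930), so its value is uncertain if counting ignored strand. Higher were Pak1, a kinase that Rac activates and that can phosphorylate the organiser (0.30, edgeR adjusted p = 0.0107), Arhgdib, which holds Rac in the cytosol (0.28, edgeR adjusted p = 0.0114), and Pik3cg, a phosphoinositide kinase subunit (0.24, edgeR adjusted p = 0.0236). Cybc1, the chaperone of the membrane pair, stood at 0.13 (edgeR adjusted p = 0.192), and passed with library totals (0.0445). The number higher was 0 leaving out lipid 1, 1 leaving out lipid 2, lipid 3 or lipid-free 2, and 7 leaving out lipid-free 1, where 4 were lower.

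Of 21 tested genes for the supply, transport, targets and breakdown of itaconate, 2 were lower with lipids and 0 higher with edgeR. Of all tested genes, 6.87% were called lower. With DESeq2, 1 was lower and 0 higher. The median was -0.09. The lower ones were Slc13a3, a dicarboxylate importer, at -0.62 (SE 0.15, edgeR adjusted p = 0.0254) and Sdhc, a subunit of succinate dehydrogenase, at -0.20 (SE 0.06, edgeR adjusted p = 0.0442). Both calls were lost when lipid-free 2 or any 1 of lipid 1 to lipid 3 was left out (edgeR adjusted p from 0.0662 to 0.188), and 8 genes were lower and 1 higher leaving out lipid-free 1. The Slc13a3 call was also lost with DESeq2 (adjusted p = 0.0693), and the Sdhc call with library totals (edgeR adjusted p = 0.169), without the low-count filter (0.0707) and with the replicate number as a block (0.0754). Sdhb, another subunit of succinate dehydrogenase, was at -0.19 (edgeR adjusted p = 0.116, and 0.00284 leaving out lipid-free 1), and Clybl, which takes part in itaconate breakdown, at -0.01 (0.971).

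Of 11 tested antimicrobial effectors outside the 8 genes, 2 were lower and 2 higher with lipids (median 0.06). Slc11a1, which pumps metal ions out of the phagosome, averaged 172 ± 10.9 CPM with lipids and 236 ± 30.3 CPM in lipid-free medium (log2 fold change -0.45, SE 0.09, edgeR adjusted p = 0.0085). That call was lost leaving out lipid 2 (edgeR adjusted p = 0.0557) or lipid-free 2 (0.0517). Ninj1, which ruptures the membrane of dying cells, was at -0.71 (SE 0.13, edgeR adjusted p = 0.00488), a call kept whichever library was left out. Rnase4 was higher by 0.40 (edgeR adjusted p = 0.00961, and 0.0608 leaving out lipid-free 2; it overlaps Ang on the same strand) and Plac8 by 0.65 (edgeR adjusted p = 0.0297, from 0.0607 to 0.152 leaving out any 1 library but lipid-free 1, and 0.102 with DESeq2). In this list the number higher was 1 leaving out any 1 of lipid 1 to lipid 3 and 0 leaving out lipid-free 2, and the number lower was 1 leaving out lipid 2 or lipid-free 2. Nos2, the inducible nitric oxide synthase, lay below the filter at 0.0741 ± 0.031 CPM with lipids and 0.101 ± 0.00797 CPM without, with at most 2 counts in a library. Camp, Bpi, Ctsg and Lcn2 also lay below it.

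Of the 14 tested interferon-inducible GTPases, which act on pathogen vacuoles, 3 were higher with lipids and 0 lower with edgeR. DESeq2 called 4 higher and 0 lower, and the median log2 fold change was 0.11. Those called with edgeR were Gbp7 at 0.41 (edgeR adjusted p = 0.0118), Irgm2 at 0.29 (edgeR adjusted p = 0.0185) and Gm4951 at 0.45 (edgeR adjusted p = 0.0194). Reads of this gene family may be shared between close copies, and Irgm2 overlaps Igtp on the same strand. The number higher was 2 leaving out lipid 1, 1 leaving out lipid 2 and 0 leaving out lipid 3 or lipid-free 2, with edgeR adjusted p-values of the lost calls between 0.054 and 0.0974.

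A list of 21 transcription factors was drawn up as possible regulators of Acod1, oxidase or lysozyme genes in macrophages. Their action on these genes was not tested. Stat3 and Fli1 were higher and Jun lower with lipids (median -0.07). Jun, part of AP-1, averaged 55.1 ± 4.63 CPM with lipids and 77.4 ± 8.42 CPM in lipid-free medium (log2 fold change -0.49, SE 0.09, edgeR adjusted p = 0.0053). Fli1 was at 0.23 (edgeR adjusted p = 0.0297) and Stat3 at 0.29 (0.0316), and both calls were lost leaving out lipid 2, lipid 3 or lipid-free 2, and that of Stat3 also leaving out lipid 1 (edgeR adjusted p from 0.0918 to 0.168). Spi1, which encodes PU.1, was at -0.26 (edgeR adjusted p = 0.108) and Irf8 at -0.23 (0.179). Leaving out lipid-free 1, 9 factors were lower, Spi1 (edgeR adjusted p = 0.000437) and Irf8 (0.00114) among them. Irf1 did not pass at -0.08 (edgeR adjusted p = 0.626). Stat3 overlaps Stat5a on the other strand (3351 counts against 25632). Cebpb, at -0.26 (0.189, and 0.0221 leaving out lipid-free 1), overlaps Tmem189 on the other strand, which held 26533 counts against 3292, so its value is uncertain if counting ignored strand.

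Of 14 tested genes for the removal of superoxide and peroxides, the products of the oxidase, 6 were lower with lipids and 0 higher with edgeR. DESeq2 gave the same numbers, and the median log2 fold change was -0.26. Sod2, the mitochondrial superoxide dismutase, averaged 78.6 ± 2.79 CPM with lipids and 112 ± 5.61 CPM in lipid-free medium (log2 fold change -0.51, SE 0.06, edgeR adjusted p = 0.000547). Gpx1, a glutathione peroxidase, was at -0.80 (SE 0.11, edgeR adjusted p = 0.00104), Prdx1, a peroxiredoxin, at -0.36 (0.00148) and catalase, Cat, at -0.30 (0.00848). The cytosolic Sod1 did not pass at -0.02 (edgeR adjusted p = 0.879). Calls for Sod2, Gpx1 and Prdx1 held whichever library was left out, that for Cat was lost leaving out lipid 1 or lipid 2 (edgeR adjusted p = 0.0569 and 0.0522), and the number lower was 3 in each of those fits.

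**Figure D4:**
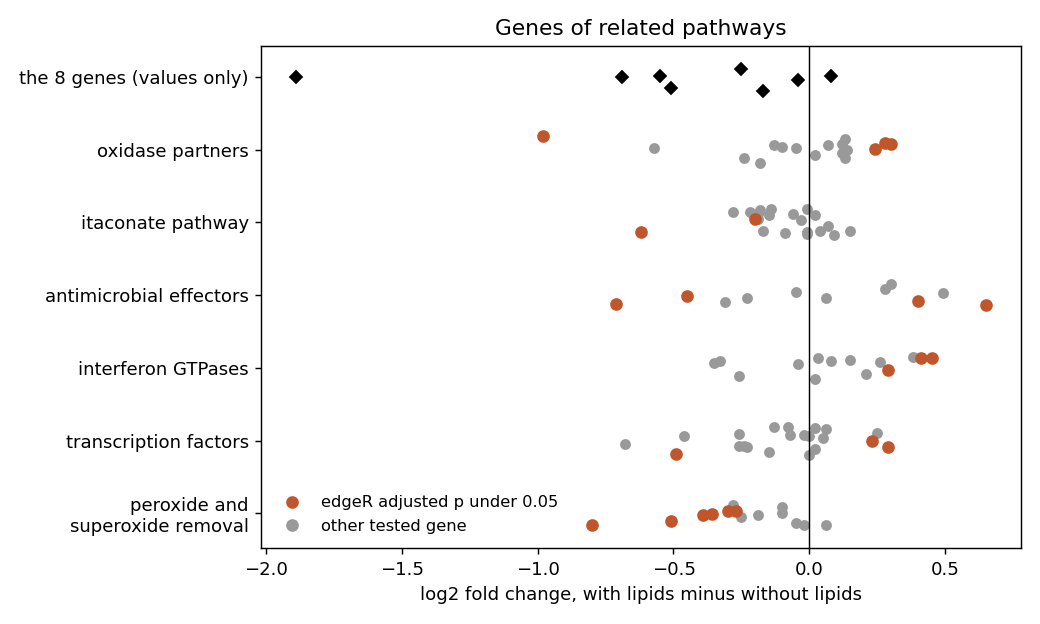
Log2 fold change, with lipids minus without lipids, of the 8 genes (black diamonds, values only) and of the tested genes in 6 related lists. Coloured points passed an edgeR adjusted p of 0.05 over all tested genes. Called genes for superoxide and peroxide removal all lie left of 0, called interferon GTPases all right of it, and the itaconate list holds calls on the left and the other 3 lists on both sides.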

How the data were processed

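The deposited files hold whole-number counts per gene for 6 libraries made with a stranded mRNA kit. TopHat2 2.1.0, HTSeq and DESeq2 on GRCm38.p4 are named in the submitters' processing notes. No label states the annotation release or the counting strand. In total the authors' counts held 46603 gene rows and 0 rows naming no gene, and GENCODE M21 (GRCm38) named 46091 of them. Genes passed a filter (edgeR's filterByExpr, minimum count 10, minimum total 15), leaving 12767. Counts were TMM-scaled and tested, two-sided, with edgeR 4.0.16 in R 4.3.3 (quasi-likelihood, no covariates). Benjamini-Hochberg adjustment was over all tested genes, with a threshold of 0.05. Each SE of a log2 fold change was derived from that test, as its size divided by the square root of the F statistic. CPM uses TMM-scaled totals, and CPM per kilobase divides by merged exon length. Ratios and orders between genes therefore depend on which exons are annotated. A count of 3 corresponds to 0.115 to 0.159 CPM, and such floors cover counting error only. Replicates differed beyond sampling noise (chi-square per degree of freedom 2.65 to 20.1). DESeq2 1.42.0, other scalings, no filter, a replicate block, a threshold of 0.01 and leaving out each library were alternatives. Members and lists were chosen with earlier results of these data known. Named genes are the 8 members, up to 4 called genes of each list by smallest p, a fixed panel, the 3 genes nearest each member in pattern, and the genes between Ncf4 and Rac2, and some of them are not reported here.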

Additional observations from a re-analysis of the deposited data

How the results depend on the processing

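Counts of calls depended on lipid-free 1. Leaving out each library in turn gave 219 to 1566 genes higher and 423 to 1975 lower with lipids, with both highest counts reached leaving it out, and with 219 to 263 higher and 423 to 488 lower leaving out lipid 1, lipid 2, lipid 3 or lipid-free 2. Library totals gave 1241 higher, with 67.6% of calls higher against 40.0% with TMM, and moved the median of all genes to 0.07. No low-count filter gave 1009 higher, and an adjusted p of 0.01 gave 216 higher and 444 lower. Over the left-out libraries, oxidase partners ranged from 0 to 7 higher and 1 to 4 lower, itaconate genes from 0 to 1 higher and 0 to 8 lower, antimicrobial effectors from 0 to 3 higher and 1 to 3 lower, interferon GTPases from 0 to 4 higher, regulators from 0 to 2 higher and 1 to 9 lower, and superoxide and peroxide removal from 3 to 8 lower. With library totals, 5 oxidase partners and 5 interferon GTPases were higher and 1 itaconate gene lower. Without the filter, 2 oxidase partners and 6 regulators were lower and 4 antimicrobial effectors higher. DESeq2 called 2 oxidase partners, 1 itaconate gene and 2 regulators lower, and 1 antimicrobial effector higher. At 0.01, 0 oxidase partners, interferon GTPases, regulators higher and 0 itaconate genes lower were called, and 1 antimicrobial effector higher. Log2 fold changes with library totals were -0.44 for Cybb, 0.16 for Ncf1 and -0.47 for Mpeg1. The cause was not tested.

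Deviations of same-numbered replicates had correlations of -0.01, -0.09 and 0.18, and the labels tie nothing to a number, so no pairing was assumed. The replicate block gave 715 genes higher and 937 lower, with 1 itaconate gene and 2 regulators lower.

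Besides Rac2, signs turned in 6 named genes, none of them called with all libraries. With library totals Clybl was at 0.07, Irf1 at 0.00, Lrp10 at 0.03, Fam234a at 0.01 and Ubald2 at 0.06. With single libraries left out, Clybl ranged from -0.06 to 0.06, Irf1 from -0.14 to 0.04, Lrp10 from -0.16 to 0.02, Fam234a from -0.16 to 0.01, Ubald2 from -0.10 to 0.03 and Kctd17 from -0.23 to 0.21. Of these, Lrp10 and Fam234a were called lower leaving out lipid-free 1 (both -0.16, edgeR adjusted p = 0.0479 and 0.033). Acod1, at 81 to 324 counts, is the member whose value counting error limits most.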

Other observations

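Ncf4 and Rac2 lie within 328 kb of each other on chromosome 15, counted from the start of Ncf4 to the end of Rac2, and 5 of the 10 protein-coding genes annotated between them were tested. Csf2rb2 and Csf2rb, close copies that encode beta chains of cytokine receptors and may share reads, were at -0.19 and -0.20 (log2 fold change, with lipids minus without lipids), neither past the threshold (both were leaving out lipid-free 1, edgeR adjusted p = 0.00381 and 0.00379). Mpst, a sulfurtransferase gene, was at -0.46 (edgeR adjusted p = 0.0442), a call lost in 5 of the 6 fits that left out 1 library, all but that leaving out lipid-free 1, and also with library totals (edgeR adjusted p = 0.071) and DESeq2 (0.0697). Kctd17 was at 0.03 and C1qtnf6 at -0.26.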
